A study of Homo sapiens with 12 samples.

Results

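GM-4-53 and GNE-140 were set against each other directly in MDA-MB-231 cells, an established human line of triple-negative breast cancer (TNBC), which lacks the estrogen and progesterone receptors and HER2 amplification. The comparison took in 6 of the 12 arrays of the series, the 3 titled for GM-4-53 and the 3 titled for GNE-140, and all 53617 features of the array, with no choice among features. Cells had received GM-4-53, a substituted tetrahydroisoquinoline that the labels write as GM453, at 5 µg/mL, or GNE-140, an inhibitor of lactate dehydrogenase A and B, at 50 µM. Both compounds were dissolved in DMSO and RNA was taken at 36 h, and the other arrays were 4 untreated controls, which had no DMSO in their labels, and 2 of paclitaxel. The doses differ in unit and in kind, so that compound and dose cannot be told apart here. The final share of DMSO is not stated. Whether replicates came from separate cultures is not said, so the p-values measure only the spread between these arrays, which may be technical.

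Lactate dehydrogenase turns pyruvate into lactate and renews the NAD+ that glycolysis uses, and TNBC cells commonly rely on glycolysis. Sugar phosphates upstream of pyruvate are sensed by the transcription factor MondoA with its partner MLX, which switches on TXNIP and ARRDC4, brakes on glucose uptake. The coactivators YAP and TAZ act through TEAD factors on genes of spreading and matrix, actin tension acts through SRF, and amino acid shortage acts through ATF4. Cell cycle genes of G2 and mitosis are held down by the DREAM complex at a promoter element called the CHR.

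The promoter stretches below are shown because each belongs to a gene group whose difference is described further on and holds the letters by which that group is commonly recognised. They were copied from RefSeq on GRCh38.p14 and run 5′ to 3′ on the gene's strand over 120 bases that end before the annotated start, with the matched letters in capitals. ARRDC4 (chr15:97960453-97960572, plus strand) holds the E-box CACGTG, CCN2 (chr6:131951442-131951561, minus strand) holds 3 copies of the TEAD core GGAATG, and PLK1 (chr16:23678769-23678888) and CDCA8 (chr1:37692396-37692515), both on the plus strand, hold the CHR letters TTTGAA. PARP14 (chr3:122680719-122680838, plus strand) and TAP1 (chr6:32853771-32853890, minus strand) hold the core of the interferon-stimulated response element (ISRE), in PARP14 on the opposite strand and in TAP1 as 2 overlapping matches, and ASNS (chr7:97872413-97872532, minus strand) holds the ATF4 composite TGATGNAA.
ARRDC4: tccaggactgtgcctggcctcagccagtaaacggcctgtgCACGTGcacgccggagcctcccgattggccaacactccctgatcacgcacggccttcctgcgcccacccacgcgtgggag
CCN2: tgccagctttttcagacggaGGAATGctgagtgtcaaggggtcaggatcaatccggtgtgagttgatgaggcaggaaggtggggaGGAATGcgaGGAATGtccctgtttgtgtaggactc
PLK1: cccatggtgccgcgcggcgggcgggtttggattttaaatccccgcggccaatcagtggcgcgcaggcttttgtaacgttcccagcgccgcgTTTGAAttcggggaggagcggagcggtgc
CDCA8: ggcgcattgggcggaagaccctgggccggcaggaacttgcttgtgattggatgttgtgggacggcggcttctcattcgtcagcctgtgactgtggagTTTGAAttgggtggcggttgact
PARP14: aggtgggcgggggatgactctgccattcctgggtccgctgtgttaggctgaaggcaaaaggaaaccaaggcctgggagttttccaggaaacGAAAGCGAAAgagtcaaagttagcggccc
TAP1: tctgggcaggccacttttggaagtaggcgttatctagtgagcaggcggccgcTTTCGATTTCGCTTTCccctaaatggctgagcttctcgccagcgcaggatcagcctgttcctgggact
ASNS: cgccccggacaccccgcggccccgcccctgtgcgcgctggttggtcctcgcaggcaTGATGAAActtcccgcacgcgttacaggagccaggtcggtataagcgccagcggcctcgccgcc

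Over the window from 250 bases before to 50 bases after the start, searched on both strands, TTTGAA stood in 39 of the 62 mitotic genes with a promoter in the RefSeq table, which is 62.9%, beside 12.5% of all 15487 promoters of measured genes. The interferon element stood in 21 of 33 interferon-stimulated genes, 63.6% beside 3.16% of all promoters, and the ATF4 composite in 9 of 34 ATF4 targets, 26.5% beside 2.71%. GGAATG stood in 8 of 18 YAP and TEAD targets, 44.4% beside 11.9%. The E-box stood in 4 of 10 genes of the MondoA and ChREBP list, 40.0% beside 8.56% of all promoters. The 4 were ARRDC4, BHLHE40, G6PC3 and MLX, of which MLX is MondoA's partner and was counted in the list. In autophagy and the lysosome the E-box stood in 11 of 33 genes, 33.3%. It also stood in 7 of 15 ribosome biogenesis genes (46.7%) and in 27.8% of YAP and TEAD targets, lists that were higher under GM-4-53. It overlaps the shorter hypoxia core ACGTG, which was in 23.7% of all promoters. The lists were written from known targets, so these shares describe the lists and not the arrays, and a match is not a shown site. The genes whose promoters are printed all passed the test described below, but other genes with the same letters did not. Among those not passing were GBP1, MX1 and ISG15 with the interferon element, NARS1, ATF3 and CHAC1 with the ATF4 composite, and G6PC3 with the E-box. Over the genes called in the comparison, whose count is given below, TTTGAA stood in 93 of 329 promoters of those higher under GM-4-53 (28.3%) and in 21 of 201 of those higher under GNE-140 (10.4%). The AP-1 letters TGANTCA stood in 2.74% and 8.46% of these promoters, beside 6.13% of all, and the E-box in 9.73% and 8.46%. The interferon element stood in 3.04% and 3.48%, and GGAATG in 12.8% and 11.9%, both near their shares of all promoters. The ATF4 composite stood in 2.74% and 0.995%, and the hypoxia core in 28.3% and 21.4%. None of these shares was tested.

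Signals are the deposited log2 values, on which a difference of 1 is a doubling. The 3 GNE-140 arrays correlated with each other at 0.988 to 0.990 over all features and the 3 GM-4-53 arrays at 0.971 to 0.974, and arrays of different compounds at 0.948 to 0.957. All 10 measured markers of MDA-MB-231 cells lay above the array median, with 6 of them higher under GM-4-53. Of the markers expected low, the progesterone receptor gene PGR had a mean of 1.78 and the epithelial gene EPCAM 5.82, and 7 of 11 lay above the array median. PTPRC, which defines leukocytes, was at 1.46 and DCN of fibroblasts at 1.53. The log2 levels of 9 leukocyte markers summed to 25.62 to 27.22 under GM-4-53, 28.71 to 28.81 under GNE-140 and 26.29 to 28.92 in controls. The sums of the compounds did not overlap. Of the 9 markers 2, CD14 and CD8A, passed as higher under GNE-140 (-0.97 and -0.50) and 0 as higher under GM-4-53. The former is 22.2%, beside 11.5% of all genes. CD68, a lysosomal gene also used for macrophages, was at 8.30. Sums of 6 fibroblast markers were 13.89 to 14.14 under GM-4-53, 14.43 to 14.63 under GNE-140 and 13.86 to 14.35 in controls, with COL1A1 alone higher under GNE-140. Those of 5 endothelial markers were 14.65 to 15.52 under GM-4-53, 15.68 to 15.98 under GNE-140 and 13.81 to 16.03 in controls, with 1 passing in each direction. The compounds did not overlap in the fibroblast and endothelial sums either, and the GNE-140 arrays had higher median signals, as given below. How often sums of other genes do not overlap was not computed. The part of these markers in the results was not tested.

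Control arrays outside the comparison bear on it. Control replicate 4 carries, in the field that names the cells, text of the same form as the GNE-140 arrays and unlike the other arrays, and it correlated at 0.977 to 0.979 with the GNE-140 arrays but at 0.945 to 0.960 with the other controls. Its median signal was 2.82, as against 2.78 to 2.82 on the GNE-140 arrays and 2.64 to 2.69 on the GM-4-53 and other control arrays. What the arrays share is not stated, so the gap of control replicate 4, its value minus the mean of control replicates 1 to 3, was computed for every gene and list. Adding that gap to the difference gives what is called here the shared-term difference, which is given below for lists and for the genes that matter most. It rests on a single array, its standard errors were a median of 1.84 times larger, and it was fitted with limma on all 12 arrays. Control replicate 3 is set there with control replicates 1 and 2. However, it correlated at 0.963 to 0.967 with the GNE-140 arrays, and control replicates 1 and 2 at 0.954 to 0.960.

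At an adjusted p under 0.05 and a change above 2-fold, 2299 of the 53617 features (4.29%) were called, of which 1547 (2.89%) were higher under GM-4-53 and 752 (1.40%) higher under GNE-140. Features with 1 gene symbol gave 837 calls of 23870 (3.51%), 476 (1.99%) and 361 (1.51%) in these directions, and reduced to 1 feature a gene there were 460 genes higher under GM-4-53 and 338 higher under GNE-140. Of these 798 genes, 126 had a lower-group mean under the median signal of the 6 arrays. ADAMTS6, SLCO4C1 and RN5S116, described below, are among them. The higher share under GM-4-53 was 67.3% of called features as deposited and 82.0% after centring each array on its median, which moved the median difference of all features from 0.00 to 0.13, and differences below are as deposited. Without a fold limit, 10.3% of the 22394 genes passed as higher under GM-4-53 and 11.5% as higher under GNE-140, and the median difference over genes was -0.05. List members are counted below at that second threshold, so each list's share can be read against these percentages. Counts at an unadjusted p under 0.05 have no such share over all genes beside them and cannot be read in this way. Each difference is GM-4-53 minus GNE-140 with limma's standard error, and each adjusted p is from limma with Benjamini-Hochberg adjustment over all features.

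Across genes the difference and the gap of control replicate 4 ran against each other (Pearson's r = -0.53 over 22394 genes, which are not independent and share their arrays). Of the 460 genes higher under GM-4-53, 420 had control replicate 4 below the other controls, and of the 338 higher under GNE-140, 244 had it above. The shared-term difference kept the sign in 713 of the 798 called genes and passed an adjusted p of 0.05 in 99 of them, 43 higher under GM-4-53 and 56 higher under GNE-140. Whether an origin shared by these 4 arrays has a part in the differences was not tested. Over all genes, the shared-term fit passed 0.201% as higher under GM-4-53 and 0.549% as higher under GNE-140.

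**Figure D1:**
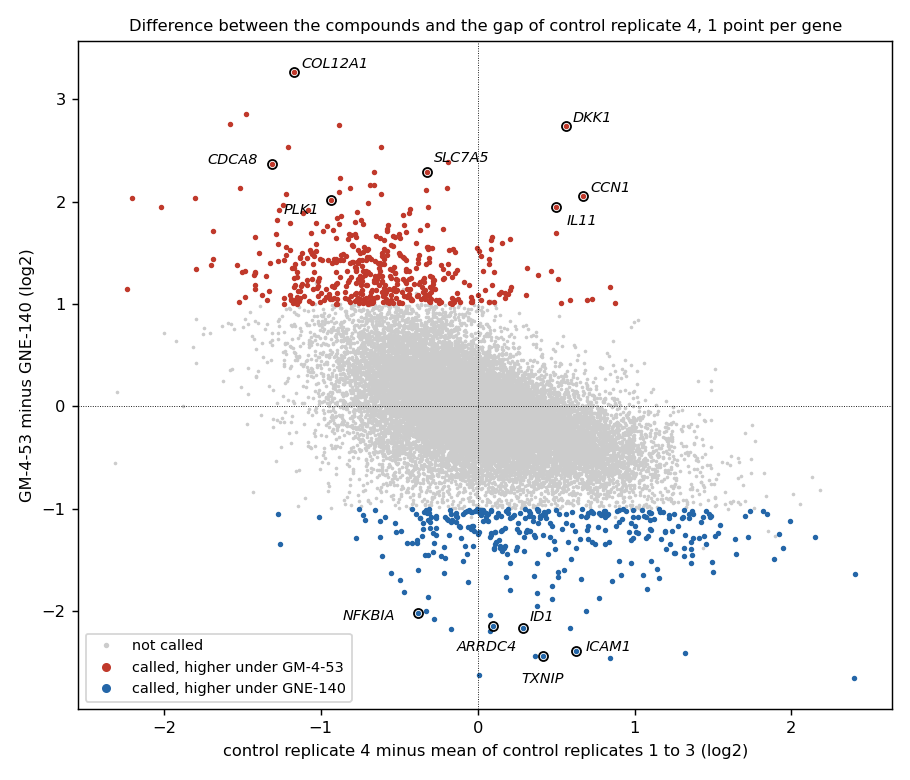
Each point is 1 of 22394 genes, with the gap of control replicate 4 (log2) on the horizontal axis and the difference between the compounds (log2, above 0 where GM-4-53 was higher) on the vertical axis. Called genes higher under GM-4-53 (460) gather to the left of 0 and those higher under GNE-140 (338) spread mostly to the right, while DKK1, CCN1 and IL11 stand high on the right and NFKBIA stands low on the left.

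The genes of the targets of GNE-140 did not pass the test. LDHA, the muscle-type subunit, read 7.12, 7.20 and 7.05 under GM-4-53 and 7.24, 7.20 and 7.21 under GNE-140, with 1 array of each group at 7.20, a difference of -0.09 ± 0.10 (SE, 95% interval -0.34 to 0.15) with an adjusted p of 0.548. LDHB, the heart-type subunit, read 5.54, 5.56 and 5.53 under GM-4-53 and 5.25, 5.25 and 5.19 under GNE-140, a difference of 0.31 ± 0.10 (95% interval 0.08 to 0.54) with an adjusted p of 0.0662. All 3 GM-4-53 arrays were above the GNE-140 arrays for LDHB, and its shared-term difference was -0.02. Among 20 measured glycolysis enzymes and glucose transporters, 2 passed as higher under GM-4-53, SLC2A1 (0.98 ± 0.12) and HK2 (0.64 ± 0.12), of which HK2 no longer passed without GNE-140 replicate 1 or 3, and 1 as higher under GNE-140. That 1 was SLC2A3, a high-affinity glucose transporter, at 3.75, 4.02 and 4.23 under GM-4-53 and 5.46, 5.63 and 5.77 under GNE-140 (3.08-fold, adjusted p = 0.00137). It was named because it passed, so the distance between its groups follows from the choice. Its shared-term difference was -2.17 (limma, adjusted p = 0.0121).

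Of 22 genes of pyruvate and lactate handling 3 were higher under each compound (13.6%), a share near that over all genes, with 1 to 2 higher under GM-4-53 and 2 to 5 under GNE-140 when 1 array was left out. PDK4, the kinase that shuts the pyruvate dehydrogenase complex, read 2.72, 3.03 and 2.74 under GM-4-53 and 3.88, 3.67 and 3.82 under GNE-140, 1.94-fold higher under GNE-140, and ME1, which makes pyruvate from malate, was 2.11-fold higher there. SLC16A7, a monocarboxylate transporter, was higher under GM-4-53 (1.00 ± 0.13), but its shared-term difference was -0.04. In the TCA cycle list, 3 of 21 members were higher under GM-4-53, among them GOT1 of the malate-aspartate shuttle (0.96 ± 0.11), 1 to 3 when 1 array was left out and fewest without any 1 GNE-140 array, and 1 was higher under GNE-140. The latter was IDH1, the cytosolic isocitrate dehydrogenase, at 4.34, 4.26 and 4.09 under GM-4-53 and 5.39, 5.39 and 5.44 under GNE-140. The control arrays read 5.18, 5.36, 5.67 and 5.29, close to GNE-140, and the adjusted p against controls was 0.0019 for GM-4-53 and 0.918 for GNE-140. Of 41 respiratory chain subunits, 1 was higher under GM-4-53 and 4 were higher under GNE-140, shares below those over all genes, and 0 to 2 and 1 to 4 when 1 array was left out.

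The MondoA and ChREBP targets had the lowest median of the 39 lists as deposited. By share passing (54.5%) they came after hypoxia targets (59.3%) and interferon-stimulated genes (56.1%), and by shared-term median after the latter. Of 11 measured members 6 were higher under GNE-140, and 6 again passed when any 1 array was left out. The 1 higher under GM-4-53 was MLX, MondoA's partner, which did not pass without GNE-140 replicate 1 or 2. The list's median difference was -0.95. TXNIP, which binds thioredoxin and lowers glucose uptake, read 7.45, 7.50 and 7.47 under GM-4-53 and 9.90, 9.98 and 9.87 under GNE-140, 5.43-fold higher under GNE-140 (-2.44 ± 0.10, adjusted p = 0.000294). Every control array (7.92, 8.02, 8.94 and 8.71) lay between the 2 groups. ARRDC4, its arrestin-family paralog whose E-box is printed above, read 3.78, 3.68 and 3.61 under GM-4-53 and 5.74, 5.74 and 6.04 under GNE-140, a 4.42-fold difference, with controls at 4.33, 4.44, 4.53 and 4.53. Here too the controls lay between, and both sides passed against them, GM-4-53 below (adjusted p = 0.0125) and GNE-140 above (adjusted p = 0.000487).

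ARRDC3, another arrestin-domain protein, read 6.12, 6.26 and 5.71 under GM-4-53 and 8.20, 8.18 and 8.24 under GNE-140 with controls at 7.20, 7.20, 7.02 and 6.97, so that the same order of GM-4-53, control and GNE-140 held on every array. BHLHE40, a clock-linked repressor of the same list, differed by -1.60 ± 0.11, and its relative BHLHE41, outside the list, read 4.84, 5.01 and 4.90 under GM-4-53 and 7.23, 7.00 and 7.10 under GNE-140, 4.56-fold higher under GNE-140. Over the whole list, 5 members were above controls under GNE-140 and 5 were below controls under GM-4-53 in the 12-array fit, where 0.460% and 1.64% of all genes passed in these directions. These 2 counts share the control arrays. The median gap of control replicate 4 in the list was -0.03, and the median shared-term difference -0.87. ARRDC3, ARRDC4 and BHLHE40 passed with the shared term (adjusted p = 0.0119, 0.0121 and 0.0152), and TXNIP had 0.0508.

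**Figure D2:**
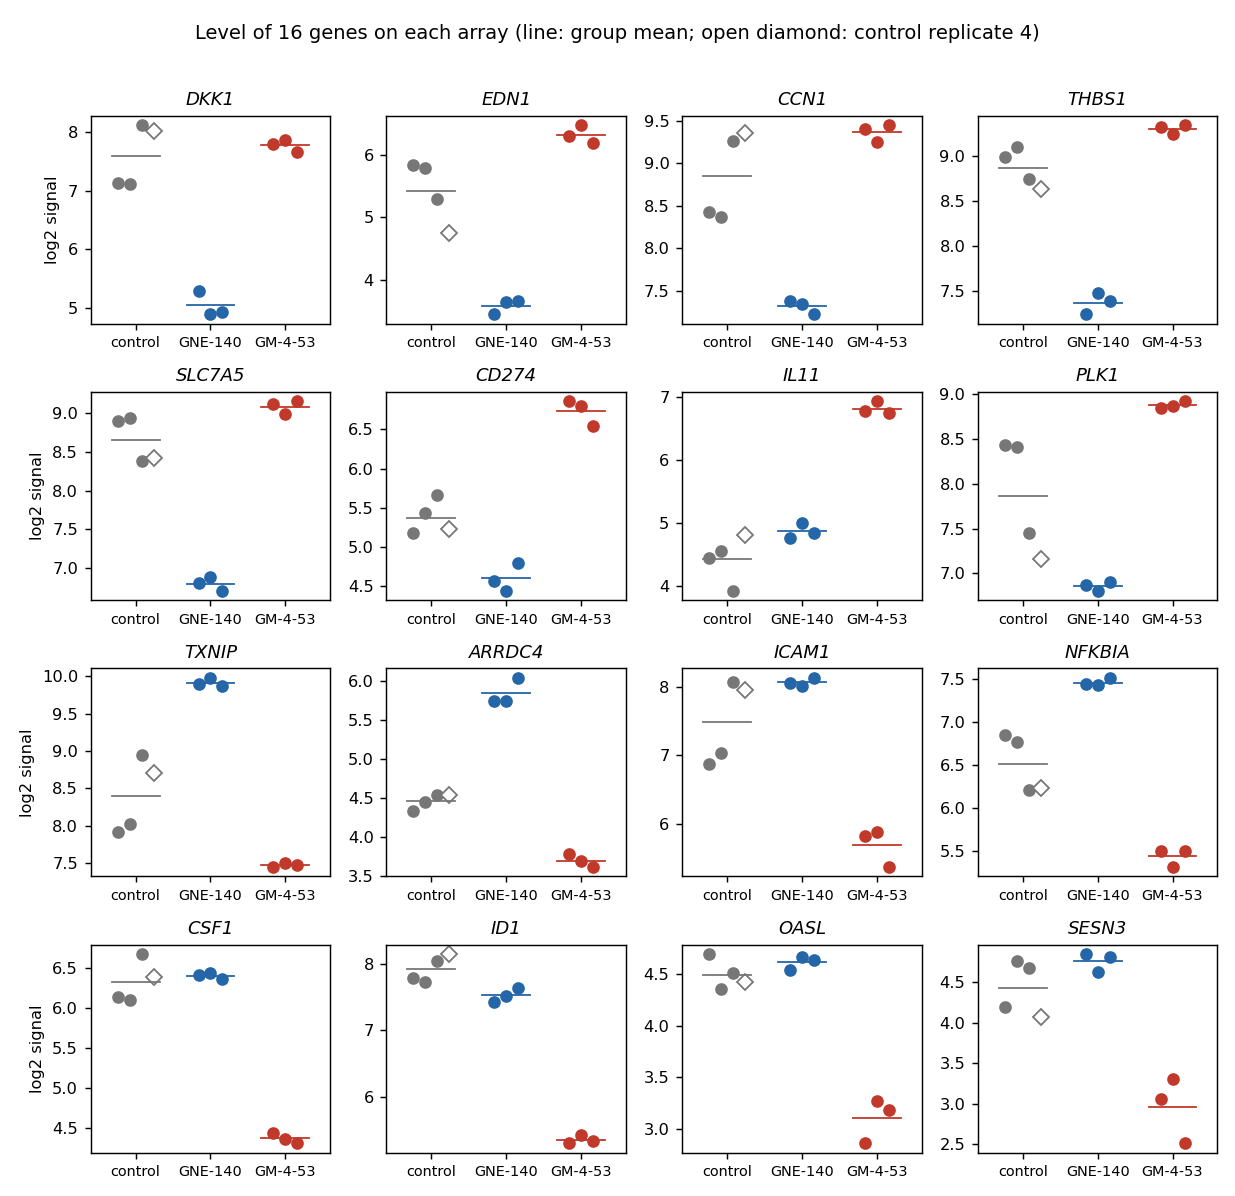
Each panel gives the log2 signal of 1 gene on the 4 control arrays, the 3 GNE-140 arrays and the 3 GM-4-53 arrays, with a line at each group mean and control replicate 4 as an open diamond. TXNIP, ARRDC4 and NFKBIA have the controls between the compounds, CSF1, ID1 and OASL are low on the GM-4-53 arrays, and DKK1, CCN1, THBS1 and SLC7A5 are low on the GNE-140 arrays. In PLK1 control replicates 3 and 4 lie between the other controls and GNE-140.

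Targets of YAP and TEAD stood higher under GM-4-53. Of 25 measured members 19 were higher under GM-4-53 and 1, the kinase NUAK2, was higher under GNE-140, with a median difference of 1.01. CCN1, a secreted matrix protein, read 9.41, 9.25 and 9.45 under GM-4-53 and 7.38, 7.34 and 7.22 under GNE-140, a 4.16-fold difference (2.06 ± 0.11, adjusted p = 0.00032). CCN2, whose promoter with GGAATG is printed above and which is named here after its values were seen, read 7.61, 7.48 and 7.52 under GM-4-53 and 6.50, 6.38 and 6.59 under GNE-140, 2.07-fold. The controls read 8.42, 8.37, 9.26 and 9.35 for CCN1 and 7.35, 7.26, 8.25 and 8.35 for CCN2, and replicates 3 and 4 were the higher pair in both genes. All control arrays were above the GNE-140 arrays in each. CRIM1, a membrane protein that binds BMPs, differed by 1.73 ± 0.11, DLC1, a GTPase-activating protein for RhoA, by 1.63 ± 0.12, and F3, the tissue factor that starts clotting, by 1.55 ± 0.13. In the 12-array fit 9 members were below controls under GNE-140, beside 1.19% of all genes, and 3 were above controls under GM-4-53, beside 0.835% of all genes. The list's median gap of control replicate 4 was 0.00, its median shared-term difference 0.70, and 5 members passed with the shared term, CCN1, CRIM1, DLC1 and F3 among them. YAP1 itself differed by -0.02 (adjusted p = 0.899).

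SRF targets and genes of the actin cytoskeleton showed the same direction, with 14 of 21 higher under GM-4-53 and 0 higher under GNE-140 (also 0 at an unadjusted p under 0.05, limma), and a median of 0.69. Left-out arrays gave 11 to 15 higher under GM-4-53 and 0 to 1 higher under GNE-140. MYL9, the regulatory light chain of nonmuscle and smooth muscle myosin, read 8.60, 8.39 and 8.73 under GM-4-53 and 6.97, 7.10 and 7.03 under GNE-140, 2.91-fold apart, with controls at 7.92, 8.10, 7.66 and 7.74. The GM-4-53 arrays were above all controls and the GNE-140 arrays below all of them, and both contrasts passed (adjusted p = 0.0215 and 0.0147). ACTN1 and ZYX, which sit at actin bundles and focal adhesions, differed by 1.24 ± 0.11 and 1.10 ± 0.13, and calponin CNN2 by 1.24 ± 0.11. Against controls, 9 members were above under GM-4-53 and 2 below under GNE-140, and the shared-term median was 0.69. DIAPH3, a formin that nucleates actin and is outside the list, read 8.07, 8.07 and 7.88 under GM-4-53 and 5.59, 5.26 and 5.57 under GNE-140, 5.78-fold.

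Secreted and matrix genes held several of the largest single differences. COL12A1, a fibril-associated collagen (chromosome 6), read 7.13, 7.04 and 7.31 under GM-4-53 and 3.92, 3.70 and 4.06 under GNE-140, 9.64-fold higher under GM-4-53 (3.27 ± 0.14, 95% interval 2.95 to 3.59, adjusted p = 0.000294). Controls were uneven for it at 5.92, 5.96, 4.40 and 4.25, with replicates 3 and 4 nearer to GNE-140, and its shared-term difference of 2.10 did not pass (adjusted p = 0.155). EDN1, the vasoconstrictor endothelin, read 6.31, 6.48 and 6.19 under GM-4-53 and 3.44, 3.64 and 3.66 under GNE-140, and DKK1, a secreted WNT antagonist, read 7.81, 7.87 and 7.66 under GM-4-53 and 5.30, 4.89 and 4.93 under GNE-140. For DKK1 the controls (7.13, 7.12, 8.13 and 8.02) were all far above GNE-140, and both genes passed with the shared term (adjusted p = 0.0213 and 0.0143). THBS1, a matrix glycoprotein that activates latent TGF-beta, read 9.33, 9.25 and 9.35 under GM-4-53 and 7.24, 7.47 and 7.39 under GNE-140, 3.85-fold, and FSTL1, a secreted follistatin-like protein, differed by 2.29 ± 0.14, with shared-term differences of 1.63 (adjusted p = 0.0152) and 1.63 (adjusted p = 0.06). SRGN, a proteoglycan core protein, differed by 2.54 ± 0.23 with a wider spread between arrays (5.89, 6.19 and 5.60 under GM-4-53 and 3.14, 3.11 and 3.82 under GNE-140).

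Taken as a list, 7 of 34 collagens and matrix proteases were higher under GM-4-53, COL8A1 (2.17 ± 0.15), ADAMTS1 (1.78 ± 0.16) and ADAMTS6 (1.64 ± 0.12) after COL12A1, and 3 were higher under GNE-140, 5 to 6 and 0 to 2 when 1 array was left out, the latter fewest without GNE-140 replicate 1 or 2. The median was 0.04, 0.02 with the shared term, where 1 passed as higher under GM-4-53. ADAMTS6 read 3.85, 3.88 and 3.88 under GM-4-53 and 2.11, 2.17 and 2.41 under GNE-140, and controls at 2.31, 2.61, 1.88 and 2.48 were near GNE-140. Of 8 genes of hyaluronan, 5 were higher under GM-4-53 and 0 under GNE-140 (also 0 at an unadjusted p under 0.05, limma), with 3 to 4 of the former when 1 array was left out. HAS2, a hyaluronan synthase, read 7.42, 7.51 and 7.31 under GM-4-53 and 5.67, 5.60 and 5.65 under GNE-140 (3.41-fold), and its receptor CD44 differed by 0.73 ± 0.10, with a shared-term difference of 0.20. Of TGF-beta pathway genes 6 of 23 were higher under GM-4-53 and 5 under GNE-140, the latter from 2 to 5 with 1 array left out, and with the shared term 3 passed as higher under GM-4-53. TGFB2 was 2.55-fold higher under GM-4-53 and LTBP1, which binds latent TGF-beta in matrix, 3.17-fold higher under GNE-140.

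IL11, an interleukin 6 family cytokine, and CD274, which encodes the checkpoint ligand PD-L1, were higher under GM-4-53 in unlike ways. IL11 read 6.78, 6.93 and 6.74 under GM-4-53 and 4.76, 4.99 and 4.85 under GNE-140, 3.86-fold, with controls at 4.45, 4.56, 3.93 and 4.81 near GNE-140 (adjusted p against controls 0.000338 for GM-4-53 and 0.257 for GNE-140). CD274 read 6.86, 6.79 and 6.54 under GM-4-53 and 4.56, 4.44 and 4.79 under GNE-140, 4.38-fold, with controls of 5.17, 5.43, 5.66 and 5.22 between the groups and both contrasts passing (adjusted p = 0.00154 and 0.0303). Both genes passed with the shared term (adjusted p = 0.0121 and 0.0162). Of 14 checkpoint ligands 4 were higher under GM-4-53, the others being PDCD1LG2 (1.43 ± 0.16), PVR (0.93 ± 0.13) and NECTIN2 (0.94 ± 0.13), and 2 were higher under GNE-140, 1 when any 1 array was left out. HBEGF, a membrane-bound EGFR ligand, read 6.65, 6.66 and 6.60 under GM-4-53 and 5.23, 5.19 and 5.50 under GNE-140, on either side of controls at 5.79, 5.97, 5.92 and 5.76, and its shared-term difference was 1.20 (adjusted p = 0.0338). EREG, another EGFR ligand, was 2.33-fold higher under GNE-140, and EGFR itself 1.83-fold higher under GM-4-53, in a list of EGFR ligands and receptors with 2 of 11 higher under GM-4-53 and 3 under GNE-140 (1 to 3 with 1 array left out). Of 13 genes of the interleukin 6 family, 2 were higher under GM-4-53 and 3 under GNE-140, 1 to 2 and 1 to 4 when 1 array was left out, with fewest of the latter without any 1 GNE-140 array. The median went from -0.41 to -0.07 with the shared term, and IL6ST, the shared receptor gp130, differed by -0.61 ± 0.10.

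Amino acid genes were divided, with 17 of 41 ATF4 targets higher under GM-4-53 and 9 higher under GNE-140 (10 to 16 and 3 to 8 with 1 array left out) and a median of 0.10, 0.24 with the shared term. The largest were transporters. SLC7A5, the light chain of the leucine transporter LAT1, read 9.12, 8.99 and 9.15 under GM-4-53 and 6.81, 6.88 and 6.71 under GNE-140, 4.88-fold (2.29 ± 0.11, adjusted p = 0.000294). SLC7A1, a carrier of arginine and lysine, read 8.04, 7.84 and 8.09 under GM-4-53 and 6.16, 6.003 and 6.02 under GNE-140, 3.81-fold, and PSAT1, an enzyme of serine synthesis, 7.75, 7.66 and 7.72 under GM-4-53 and 5.94, 5.88 and 6.37 under GNE-140, 3.14-fold. GNE-140 arrays were below all controls in each, and the controls of SLC7A5 (8.89, 8.94, 8.38 and 8.41) reached close to GM-4-53. ASNS, asparagine synthetase, whose ATF4 composite is printed above, differed by 1.01 ± 0.10. In the 12-array fit 14 members were below controls under GNE-140, 3 were below and 1 was above under GM-4-53. The 3 genes passed with the shared term (adjusted p = 0.0152, 0.0201 and 0.0453). Of 21 genes of the unfolded protein response only 1 passed in each direction, PPP1R15A higher under GM-4-53 (0.75 ± 0.11) and SEL1L higher under GNE-140, which 5 of the 6 fits with an array left out did not pass.

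Genes of the mitotic spindle and kinetochore had the highest share passing of the 39 lists, 97.2%. Of 71 measured members 69 were higher under GM-4-53 and 0 under GNE-140, by limma at an adjusted or an unadjusted p under 0.05, 58 of the 69 above 2-fold, with a median of 1.38 and 63 to 68 passing with 1 array left out. PLK1, a mitotic kinase, read 8.85, 8.88 and 8.92 under GM-4-53 and 6.87, 6.81 and 6.91 under GNE-140, 4.06-fold, and CDCA8, a chromosomal passenger protein, 7.89, 7.78 and 7.95 under GM-4-53 and 5.58, 5.45 and 5.48 under GNE-140, 5.16-fold. The kinesins KIF18B and KIF20A differed by 1.99 ± 0.11 and 1.81 ± 0.11. These 4 genes were named for large passing differences, so that their groups did not overlap follows from the choice. The controls ran through the range, with PLK1 at 8.44, 8.41, 7.45 and 7.16 and CDCA8 at 7.12, 7.23, 6.53 and 5.65. The list's median gap of control replicate 4 was -0.70. With the shared term the median was 0.62, 64 members stayed positive and 0 of 71 passed. At an unadjusted p under 0.05 (limma), 32 were higher under GM-4-53 and 1 higher under GNE-140, with no share of all genes to set beside them. Against controls, 17 members were above under GM-4-53 and 5 below under GNE-140.

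In DNA replication and repair the controls spread across both groups. Of 47 replication genes 38 were higher under GM-4-53 and 1 under GNE-140, with a median of 0.82, and the shared-term median was -0.03 with 22 of 47 positive. MCM10, a replication initiation factor, read 6.50, 6.62 and 6.52 under GM-4-53 and 4.87, 4.93 and 5.09 under GNE-140, but its controls were 6.70, 6.67, 5.02 and 4.86, replicates 1 and 2 at the level of GM-4-53 and 3 and 4 at that of GNE-140. UHRF1, which guides maintenance of DNA methylation, had the same layout, at 6.01, 5.99 and 6.09 under GM-4-53 and 4.60, 4.58 and 4.63 under GNE-140 with controls at 6.10, 6.20, 4.78 and 4.98. TK1, thymidine kinase, differed by 1.79 ± 0.14 and had a shared-term difference of 0.76. Against controls, 0 of the 47 passed in limma's 12-array fit under GM-4-53 (4 above and 1 below at an unadjusted p under 0.05) and 1, TK1, was below under GNE-140. Of 18 repair and Fanconi genes 13 were higher under GM-4-53 and 1 with the shared term, whose median was -0.00. That 1 was BRIP1, a helicase partner of BRCA1, at 7.85, 7.89 and 7.73 under GM-4-53 and 5.62, 5.68 and 5.67 under GNE-140 with a shared-term difference of 1.51 (adjusted p = 0.0453).

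Among CDK inhibitors and G1 regulators 5 of 15 were higher under GM-4-53 (3 to 4 with 1 array left out) and 3 under GNE-140. RBL1, the pocket protein p107, differed by 1.43 ± 0.15, CDK6 by 0.82 ± 0.13 and cyclin D1 (CCND1) by 0.76 ± 0.13, while CDKN1A, which encodes p21, and CCND2 had -0.66 ± 0.11 and -0.76 ± 0.12. None of these 5 passed with the shared term. Of 22 ribosome biogenesis genes 20 were higher under GM-4-53 and 0 under GNE-140 (also 0 at an unadjusted p under 0.05, limma), with a median of 0.72 and 11 to 19 passing with 1 array left out, fewest without GNE-140 replicate 1 or GNE-140 replicate 2. BOP1 and UTP20, factors for the large and the small subunit, differed by 1.14 ± 0.14 and 0.99 ± 0.11, and the shared-term median was 0.39. Of 27 ribosomal proteins 7 were higher under GM-4-53, 2 to 5 with 1 array left out, with a median of 0.26, 0.12 with the shared term.

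**Figure D3:**
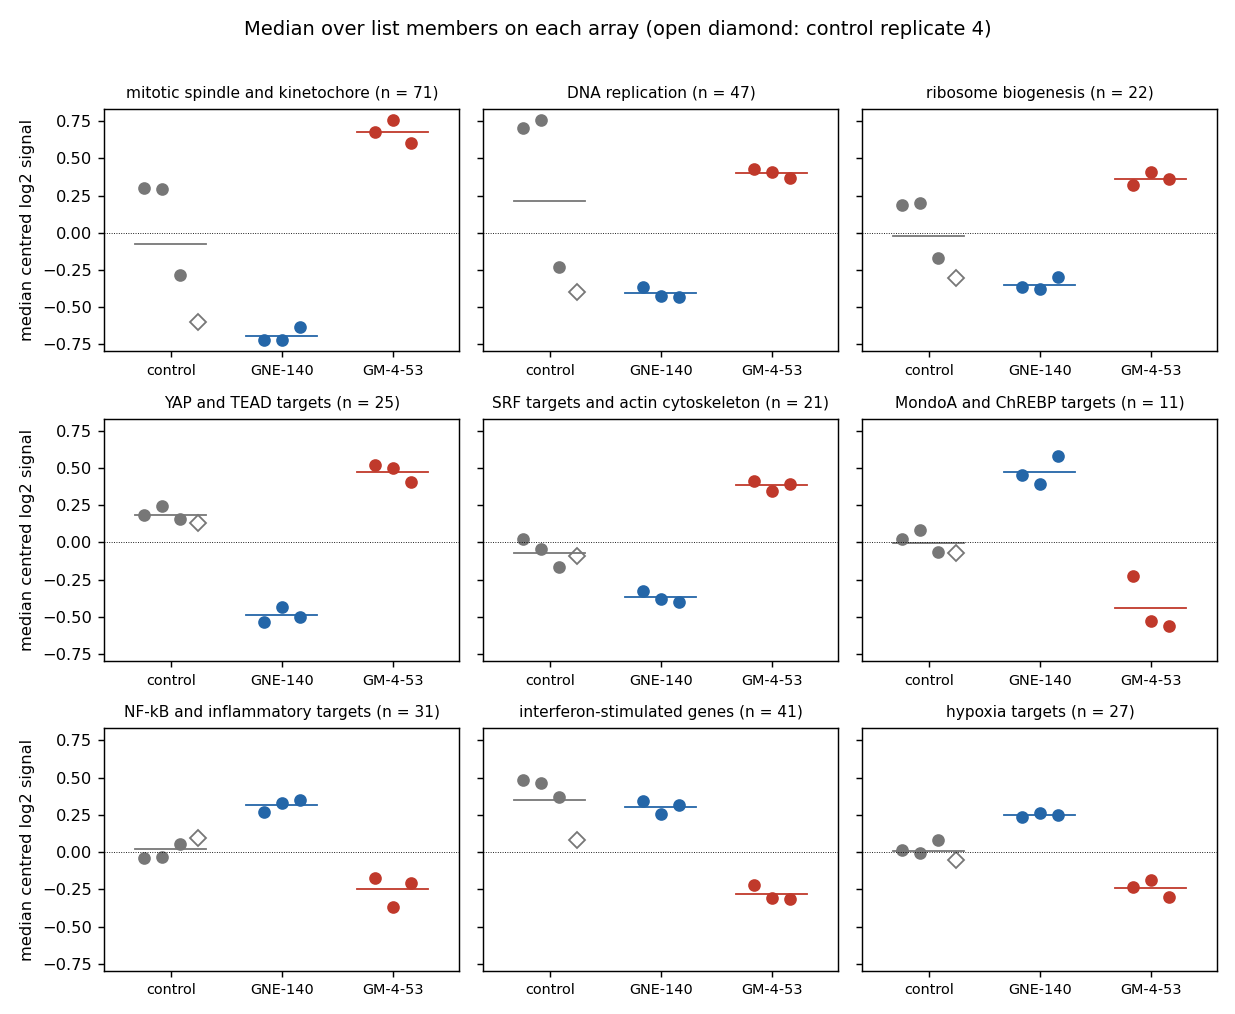
For 9 gene lists, each panel gives the median over its members of the log2 signal, each gene centred on its mean over the 6 compared arrays, on every control, GNE-140 and GM-4-53 array, with a line at each group mean. The control arrays lie close together in the YAP and TEAD, SRF and MondoA panels. In the mitotic and ribosome biogenesis panels they spread from below GM-4-53 to near GNE-140. In the DNA replication panel control replicates 1 and 2 (0.71 and 0.76) lie above the GM-4-53 arrays (0.37 to 0.43) and the others near GNE-140. Control replicate 4 (open diamond) is lowest of the controls in the mitotic, DNA replication and ribosome biogenesis panels.

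Of 31 NF-kB targets 15 (48.4%) were higher under GNE-140 and 3 under GM-4-53, CD274 among the 3, with a median of -0.55. When 1 array was left out, 8 to 13 passed as higher under GNE-140, fewest without GNE-140 replicate 2, and 1 to 2 as higher under GM-4-53, fewest without GM-4-53 replicate 1 or any 1 GNE-140 array. The shared-term median was -0.28, with 3 higher under GNE-140 and 1 higher under GM-4-53. The leukocyte, fibroblast and endothelial markers all summed higher on the same side, as given above, and their part in this difference was not tested. ICAM1, an adhesion molecule for leukocytes, read 5.82, 5.88 and 5.37 under GM-4-53 and 8.06, 8.02 and 8.14 under GNE-140, 5.23-fold (-2.39 ± 0.16, adjusted p = 0.000423). Its controls split into 6.87, 7.04, 8.07 and 7.96, the latter pair at the level of GNE-140, and its shared-term difference of -1.76 had an adjusted p of 0.133. NFKBIA, the inhibitor that ends NF-kB signaling, read 5.51, 5.32 and 5.50 under GM-4-53 and 7.44, 7.43 and 7.51 under GNE-140, 4.05-fold, with controls of 6.85, 6.77, 6.21 and 6.23 in between. It passed on both sides of control (adjusted p = 0.0103 for GM-4-53 and 0.0235 for GNE-140) and with the shared term (adjusted p = 0.0129). CSF1, the macrophage growth factor, read 4.45, 4.36 and 4.31 under GM-4-53 and 6.42, 6.44 and 6.37 under GNE-140, 4.11-fold. Its controls, 6.14, 6.11, 6.68 and 6.39, overlapped GNE-140, and only GM-4-53 passed against them (adjusted p = 0.00032 as against 0.791).

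A pair of microRNA genes, named after their values were seen, had features higher under GNE-140. Their mature sequences from RefSeq are given with the seed, bases 2 to 8, in capitals, because the seed sets which messages are bound, and the 2 seeds differ.
miR-146a-5p: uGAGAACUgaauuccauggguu
miR-21-5p: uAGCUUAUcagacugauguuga

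MIR146A (chr5:160485372-160485393 for the mature form, plus strand), a known NF-kB target that damps the pathway, read 2.85, 3.19 and 2.68 under GM-4-53 and 4.69, 4.72 and 4.70 under GNE-140, 3.47-fold, with controls of 3.55, 3.65, 3.57 and 3.79 between the groups. MIR21 (chr17:59841273-59841294, plus strand), an abundant microRNA of many carcinomas, read 5.98, 5.96 and 5.97 under GM-4-53 and 7.55, 7.47 and 7.50 under GNE-140, 2.89-fold, and its controls of 7.38, 7.30, 7.79 and 7.69 were at or near GNE-140. Both passed with the shared term (adjusted p = 0.0276 and 0.042). The array reads RNA that covers the gene, so precursor and host transcript cannot be told from the mature form.

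Interferon-stimulated genes had 23 of 41 members higher under GNE-140 and 0 higher under GM-4-53 (also 0 at an unadjusted p under 0.05, limma), with a median of -0.58 and 13 to 19 passing with 1 array left out. OASL, an antiviral protein related to oligoadenylate synthetases, read 2.86, 3.27 and 3.18 under GM-4-53 and 4.54, 4.66 and 4.64 under GNE-140, 2.84-fold, with controls at 4.69, 4.35, 4.51 and 4.43 level with GNE-140. PARP14, an ADP-ribosyltransferase whose interferon element is printed above, read 5.31, 5.15 and 5.05 under GM-4-53 and 6.40, 6.52 and 6.51 under GNE-140, 2.47-fold, and the guanylate-binding GBP4 differed by -1.28 ± 0.18. GBP2 was 3.99-fold higher under GNE-140, but its controls of 4.38, 4.51, 6.04 and 5.67 spanned the gap and its shared-term adjusted p was 0.447. In the 12-array fit 13 members were below controls under GM-4-53, and under GNE-140 1 was above and 0 were below, with 7 below at an unadjusted p under 0.05. Control replicate 4 was low in this list (median gap -0.38), so the shared-term median was larger, -0.90, and 8 members passed. MHC class I and antigen presentation had 10 of 19 higher under GNE-140 and 1 higher under GM-4-53, 4 to 9 of the former with 1 array left out, none of them above 2-fold, and a median of -0.40, -0.30 with the shared term. TAP1, the peptide transporter, read 3.86, 3.74 and 3.82 under GM-4-53 and 4.57, 4.69 and 4.65 under GNE-140 (1.77-fold), and the class II gene HLA-DMA differed by -0.91 ± 0.10.

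Hypoxia targets had 16 of 27 higher under GNE-140 and 2 higher under GM-4-53, with a median of -0.52 and 8 to 14 of the former passing with 1 array left out, fewest without GNE-140 replicate 1 or 2. The shared-term median was -0.56, with 3 passing as higher under GNE-140. DDIT4, which restrains mTORC1, read 5.89, 5.85 and 5.81 under GM-4-53 and 7.21, 7.15 and 7.18 under GNE-140, 2.51-fold, with controls of 7.04, 6.97, 6.81 and 6.52. GM-4-53 lay below all controls (adjusted p = 0.00417) and GNE-140 above all (adjusted p = 0.222), and the shared-term difference was -1.75 (adjusted p = 0.0119). CA12, a membrane carbonic anhydrase, was 3.37-fold higher under GNE-140 and NDRG1, a stress-responsive gene, 2.46-fold, both with shared-term differences that did not pass (-1.28 and -0.65). The 2 higher under GM-4-53 were SLC2A1, named above, and LOX, a collagen crosslinking enzyme (0.68).

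The list headed sestrins, FOXO factors and Tribbles also held genes outside these families, among them TXNIP (counted here again), KLHL24 and CCNG2. Of its 17 measured members 7 were higher under GNE-140 and 1 under GM-4-53, with 7 to 8 higher under GNE-140 when 1 array was left out. Their median was -0.48, -0.24 with the shared term, where 2 passed as higher under GNE-140. SESN3, a sestrin that inhibits mTORC1, read 3.05, 3.30 and 2.51 under GM-4-53 and 4.85, 4.63 and 4.82 under GNE-140, 3.51-fold, with controls of 4.19, 4.77, 4.68 and 4.07 and a shared-term adjusted p of 0.0278. KLHL24, a ubiquitin ligase adaptor, was 3.85-fold and CCNG2, an atypical cyclin linked to arrest, 1.95-fold higher under GNE-140. In autophagy and the lysosome 14 of 42 were higher under GNE-140 and 3 under GM-4-53, but only 4 were higher under GNE-140 without GNE-140 replicate 2, and those higher under GM-4-53 fell to 0 to 2, fewest without GNE-140 replicate 1 or 3. The median was -0.21, -0.33 with the shared term, where 1 passed as higher under GNE-140. GABARAPL1, of the ATG8 family that coats autophagosomes, read 3.13, 3.53 and 3.66 under GM-4-53 and 5.34, 5.20 and 5.37 under GNE-140, 3.63-fold, and controls at 4.59, 4.51, 4.64 and 4.26 lay between. It passed against controls on both sides (adjusted p = 0.00719 and 0.0308) and with the shared term (adjusted p = 0.0129).

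NRF2 targets and redox enzymes had 10 of 29 higher under GNE-140 and 1 under GM-4-53, 7 to 11 and 0 to 1 when 1 array was left out, with a median of -0.37. The shared-term median was -0.22, with 1 member passing as higher under GNE-140. SQSTM1, the autophagy receptor p62, read 5.16, 5.05 and 5.04 under GM-4-53 and 6.08, 6.24 and 6.29 under GNE-140, 2.17-fold, and GCLC, the catalytic subunit for glutathione synthesis, differed by -1.08 ± 0.15. Cholesterol synthesis had 7 of 19 higher under GNE-140 and 2 higher under GM-4-53, but 2 to 7 and 0 to 1 with 1 array left out, and its median fell in size from -0.42 to -0.10 with the shared term. MSMO1, a sterol methyl oxidase, read 6.87, 6.77 and 7.12 under GM-4-53 and 8.13, 8.20 and 8.06 under GNE-140, with controls of 7.42, 7.23, 8.62 and 8.57 on both sides of GNE-140. SCD, the desaturase that makes oleate, was 1.93-fold higher under GNE-140, and its controls (9.66, 9.71, 10.06 and 10.10) were near GNE-140.

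ID1, an inhibitor of differentiation that BMP signaling induces, read 5.31, 5.43 and 5.34 under GM-4-53 and 7.42, 7.51 and 7.64 under GNE-140, 4.48-fold lower under GM-4-53 (-2.16 ± 0.11, adjusted p = 0.000294). Controls stood at 7.79, 7.73, 8.04 and 8.14, above every array of either compound, and the adjusted p against controls was 1.41e-05 for GM-4-53 and 0.171 for GNE-140. ID3, its paralog, read 3.35, 3.19 and 2.42 under GM-4-53 and 3.52, 3.94 and 3.57 under GNE-140, with controls of 5.21, 4.90, 5.54 and 5.09. Both compounds were below controls for ID3 (adjusted p = 0.00154 and 0.00859), and they differed from each other by -0.69 ± 0.25 (adjusted p = 0.0961, 95% interval -1.28 to -0.10). In the whole list of ID genes and the BMP pathway 6 of 23 were higher under GNE-140 and 1 under GM-4-53, 3 to 7 and 0 to 1 with 1 array left out, BAMBI, a decoy receptor, among the 6 (-1.05 ± 0.11). The list's median was -0.33, -0.33 with the shared term, where 1 passed as higher under GNE-140.

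Of 21 ERK feedback genes 6 were higher under each compound, 4 to 5 under GM-4-53 and 4 to 6 under GNE-140 when 1 array was left out, and the median of -0.13 was -0.23 with the shared term, where limma passed 0 in either direction (5 and 6 at an unadjusted p under 0.05). DUSP6, a phosphatase that ERK induces against itself, read 7.72, 7.75 and 7.70 under GM-4-53 and 8.79, 8.65 and 8.78 under GNE-140, 2.02-fold higher under GNE-140, and both groups lay under controls of 9.13, 9.07, 9.75 and 9.40. ETV1, an ETS factor, was 2.43-fold higher under GNE-140, while EPHA2, a receptor kinase, was 2.02-fold higher under GM-4-53 and its controls (7.55, 7.51, 7.83 and 7.70) lay with GM-4-53. Of 22 AP-1 and immediate early genes 7 were higher under GNE-140 and 1 under GM-4-53, 4 to 8 of the former with 1 array left out, led by JUNB (4.72, 4.62 and 4.58 under GM-4-53 and 6.22, 5.86 and 5.93 under GNE-140). Their median was -0.21, -0.22 with the shared term, where 2 passed as higher under GNE-140. KLF10, a TGF-beta-induced repressor, read 6.79, 6.89 and 6.88 under GM-4-53 and 7.95, 7.96 and 8.17 under GNE-140 with controls of 7.43, 7.26, 7.58 and 7.39 between.

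Several other lists had few members past the test. Heat shock proteins had 0 higher under GM-4-53 (2 at an unadjusted p under 0.05, limma) and 2 higher under GNE-140 of 15 (0 to 2 when 1 array was left out), and apoptosis regulators 3 and 2 of 24 (1 to 3 and 1 to 3), TNFSF10, the death ligand TRAIL, at -0.92 ± 0.17 (not passing without GNE-140 replicate 1) and BCL2 at 1.29 ± 0.17. Tubulins had 3 higher under GM-4-53 and 1 under GNE-140 of 14, which became 1 to 3 and 0 when 1 array was left out. The same counts were 2 and 5 of 18 p53 targets, which became 0 to 3 and 2 to 6. Integrins and laminins had 1 and 4 of 20, which became 1 and 2 to 4, and fatty acid synthesis 3 and 3 of 20, which became 0 to 2 and 2 to 3. In these 4 lists the lowest counts came without a GNE-140 array, and for tubulins and fatty acid synthesis also without a GM-4-53 array. The integrin gene ITGA2, a collagen receptor, read 8.67, 8.66 and 8.60 under GM-4-53 and 9.83, 9.78 and 9.84 under GNE-140 with controls of 9.18, 9.33, 9.39 and 9.26 in between, and passed with the shared term (adjusted p = 0.0216). Among transporters 2 of 16 were higher under GM-4-53 and 4 under GNE-140 (0 to 2 and 2 to 4 when 1 array was left out), where SLCO4C1, an organic anion carrier, stood out at 2.62, 2.69 and 2.48 under GM-4-53 and 4.46, 4.36 and 4.46 under GNE-140, with controls of 4.31, 4.43, 5.63 and 5.17.

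Other genes led the side of GNE-140 without belonging to a list. LUCAT1, a long noncoding RNA, read 3.85, 4.06 and 3.35 under GM-4-53 and 6.30, 6.34 and 6.47 under GNE-140, 6.14-fold, and KYNU, kynureninase of tryptophan breakdown, 3.99, 3.99 and 3.84 under GM-4-53 and 6.36, 6.42 and 6.42 under GNE-140, 5.50-fold. For KYNU control replicates 1 and 2 (3.88 and 4.41) were near GM-4-53 and replicates 3 and 4 (5.59 and 5.47) nearer to GNE-140, and the same split held for ITIH2 (2.85, 2.35, 4.98 and 4.71) and the mucin MUC15 (2.86, 2.96, 5.07 and 4.22). RAB27B, a GTPase of vesicle secretion, read 5.66, 5.58 and 5.19 under GM-4-53 and 7.86, 7.90 and 7.98 under GNE-140, 5.41-fold, and the antisense RNA DLGAP1-AS1 differed by -2.07 ± 0.13 with a shared-term difference of -2.35 (adjusted p = 0.0143). Higher under GM-4-53 was IQGAP3, a scaffold of proliferating cells (2.23 ± 0.12).

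Short structural RNAs appear at both ends of the ranking and share sequence with near-identical copies, so which copy was read is uncertain. RN5S116 of the 5S ribosomal family read 1.66, 2.37 and 2.23 under GM-4-53 and 4.61, 4.91 and 4.70 under GNE-140, but control replicate 4 at 4.68 matched GNE-140 and the shared-term difference was -0.26. RNU4-9P of the U4 family differed by 2.85 ± 0.18 and RNY4P23 of the Y RNA family by 2.75 ± 0.30. The small nucleolar RNAs SNORA75 and SNORD11B differed by 2.38 ± 0.19 and 2.14 ± 0.31, and SNORA75 alone of these 5 passed with the shared term (2.20, adjusted p = 0.0152).

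**Figure D4:**
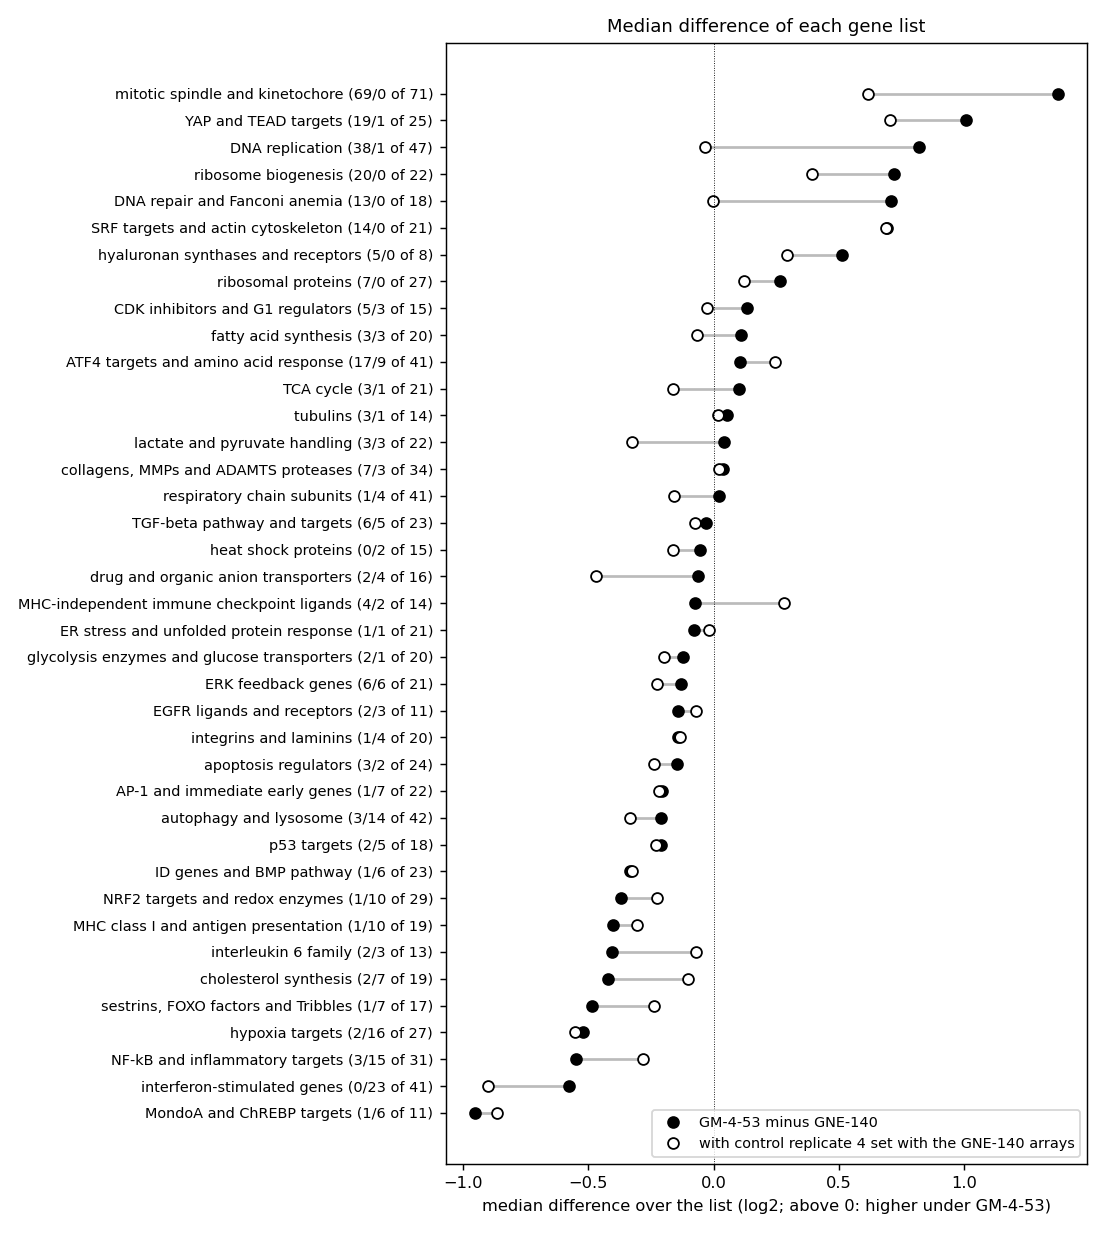
Each row is 1 of 39 gene lists with, in brackets, how many members were higher under GM-4-53 and under GNE-140 of those measured, and its filled point is the median difference on the log2 scale. The open point is the median with control replicate 4 set with the GNE-140 arrays. The mitotic list stands at 1.38 and 0.62, DNA replication at 0.82 and -0.03, SRF at 0.69 and 0.69, and MondoA at -0.95 and -0.87.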

How the data were processed

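RNA was read on Affymetrix HuGene 2.1 ST arrays. The authors made signals from the scans with Affymetrix Expression Console and deposited log2 values for 53617 features. No source used here gives its version or settings, and scans were not analysed here. The platform annotation gave 1 gene symbol to 23870 features, several to 1848 and none to 27899, 22560 matched RefSeq by gene ID, and the feature with the highest mean over the 6 arrays stood for each of 22394 genes.

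The 3 GM-4-53 and 3 GNE-140 arrays were fitted without other arrays (limma 3.58.1, R 4.3.3, lmFit and eBayes, two-sided), with Benjamini-Hochberg adjustment over all features. Calls needed an adjusted p under 0.05 and a change above 2-fold, and list members the former alone. Values against controls came from 1 fit of all 12 arrays, and the shared-term fit gave control replicate 4 and the GNE-140 arrays a common term. With 3 arrays a group, their number limits the precision.

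Named genes were the 15 largest differences each way among the calls, up to 4 passing members of each of 39 lists (the largest where none passed), and 11 genes fixed by name; others are said to be named after their values were seen, as are members given with a difference alone to illustrate a list or its motif. The comparison, the members and the lists were chosen with earlier results of these data known, and no list was tested as a set. Alternatives covered the arrays fitted, a trended prior, weights on arrays, Student's t-test, quantile and median scaling, and the dim features. They also covered the features adjusted over, other fold limits, the replicate number as a block, the shared term and leaving out each array.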

Additional observations from a re-analysis of the deposited data

Results flagged for a closer look

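Of 38 genes checked for a control array far from the other 3, 1 stood out. SNORD11B, a small nucleolar RNA, was at 1.96 in control replicate 4 and at 3.38 to 3.56 in control replicates 1 to 3, and the gap to its neighbor took up 0.889 of the range, above Dixon's critical value for 4 values. Chance marks about 1 in 20 such groups.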

How the results depend on the processing

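Counts of calls depended most on control replicate 4 and on the fold limit. As reported, 2299 features were called, 1547 higher and 752 lower under GM-4-53, and 837 features with 1 symbol, 476 higher and 361 lower. With control replicate 4 set with the GNE-140 arrays these became 289, 99 and 190, and 167, 45 and 122. With no fold limit they were 10240, 5343 and 4897, and 5236, 2417 and 2819, and above 1.5-fold 7085, 3705 and 3380, and 3414, 1555 and 1859. Student's t-test gave 1337, 866 and 471 over all features, and 5150 features at an adjusted p under 0.05 at any fold. The paper's methods name that test but do not tie it to the array comparisons. Median centring lowered the calls higher under GNE-140 to 463 of all features and 210 with a symbol, and 76.7% of calls with a symbol were then higher under GM-4-53, as against 56.9%. Leaving out 1 array gave 1798 to 2631 features. Limma-trend, array weights, quantile normalization, dim features left out and all 12 arrays in 1 fit each gave totals within 1.5 times.

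Of 164 named genes with a test, 116 no longer passed with the shared term and 5 reversed, SLC16A7 (-0.037), CEMIP (-0.67), ELOVL6 (-0.17), GOT2 (-0.24) and LDHB (-0.022), and LDHA reversed to 0.030 with median centring. The medians of DNA replication (-0.033), DNA repair (-0.0012) and CDK inhibitors and G1 regulators (-0.025) reversed with the shared term, and the last ran from -0.0095 to 0.20 with 1 array left out, turning without GNE-140 replicate 3. The cause was not tested, and the shared term also widens the errors. With the replicate block 2197 features were called. Deviations of same-numbered arrays correlated at -0.01, -0.04 and -0.07 and no array went best with its own number, so the numbers were not taken to pair the arrays. The labels do not say whether cultures were separate, what control replicate 4 shares with the GNE-140 arrays, or how much DMSO each culture held.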
